A study of Mus musculus with 4 samples.

Results

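The cardiac lineage transcription factors are a group of 10 genes chosen by name: Gata4, Gata6, Nkx2-5, Mef2a, Mef2c, Mef2d, Tbx5, Tbx20, Hand2 and Meis1. The choice went by gene symbol, without a cutoff on measured values. Earlier results of these data were known when it was made. All 10 had a row in each deposited table, out of 22322 genes in all. RNA was sequenced from cardiomyocytes of male mice, with 2 libraries from sham-operated mice (sham 1 and sham 2) and 2 from mice that had undergone transverse aortic constriction (TAC 1 and TAC 2). TAC is an operation that narrows the aorta and puts the left ventricle under pressure overload. Sham mice went through surgery without that narrowing. By the methods of the study, mice were 2 months old at surgery, hearts were examined 14 weeks later (elsewhere the methods give 14 weeks as the age of the mice used for cell isolation), and each sample held part of the myocytes of a single heart, freed by Langendorff perfusion with enzymes. The strain is not stated in the labels or methods used here, and no group carried a transgene by the labels. With 2 hearts per group, p-values weigh a difference against the spread between these few hearts, moderated by the spread of other genes.

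These factors bind DNA next to each other on the enhancers of heart muscle genes and activate one another's genes, so that they act as a network more than as single switches. GATA4 and GATA6 are zinc finger proteins, NKX2-5 is a homeodomain protein, MEF2A, MEF2C and MEF2D belong to the MADS box family, TBX5 and TBX20 carry a T-box, HAND2 is a basic helix-loop-helix protein and MEIS1 is a TALE homeodomain protein. They build the heart in the embryo and stay on in the adult cardiomyocyte, where GATA4 and the MEF2 proteins are also known as mediators of hypertrophic growth under load and MEIS1 as a brake on cell division.

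The 4 libraries held between 24237777 and 32118323 counts, and 12499 genes passed the filter on low counts. Mitochondrial genes took 39.8% to 40.8% of the counts in sham 1, sham 2 and TAC 2 and 47.4% in TAC 1, the library that stood apart. The 10 cardiomyocyte markers (Myh6, Ttn, Ryr2 and others) summed to between 58100 and 66600 CPM in every library. With no whole-heart sample beside them, these sums cannot tell isolated cardiomyocytes from whole heart tissue. CPM, the unit used for levels of one gene between libraries, is the count relative to the library total after scaling by TMM, which sets the libraries to a common level through the bulk of their genes. Markers of endothelial cells, fibroblasts, mural cells and macrophages were also present, at 37.6 to 796 CPM per summed list of 10, and no marker of any list was at 0 in all libraries. In a bulk sample, fewer cells of a type and less RNA per cell cannot be told apart.

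All 10 factors passed the low-count filter, and their counts ran from 222 to 5047. One of the 10 was called at an adjusted p under 0.05 by edgeR's quasi-likelihood test, namely Tbx5, which fell in the TAC group. Among all genes tested, 5.01% were called, 2.58% as higher and 2.43% as lower in the TAC group, so that 1 of 10 lies near the background. The median log2 fold change of the 10 factors was −0.03 against −0.01 for all genes. At an unadjusted p under 0.05 there were 4 of the 10 (Tbx5, Tbx20, Mef2c and Meis1) against 27.5% of all genes. The sham and TAC values did not overlap for 5 of the 10, which were higher in the TAC group for Tbx20 and lower for Mef2a, Mef2c, Tbx5 and Meis1. For all genes that share was 60.1%, with 29.8% higher and 30.3% lower. All these values were taken under TMM. When libraries were scaled by total counts instead, 0.84% of all genes were called as higher and 3.38% as lower.

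**Figure D1:**
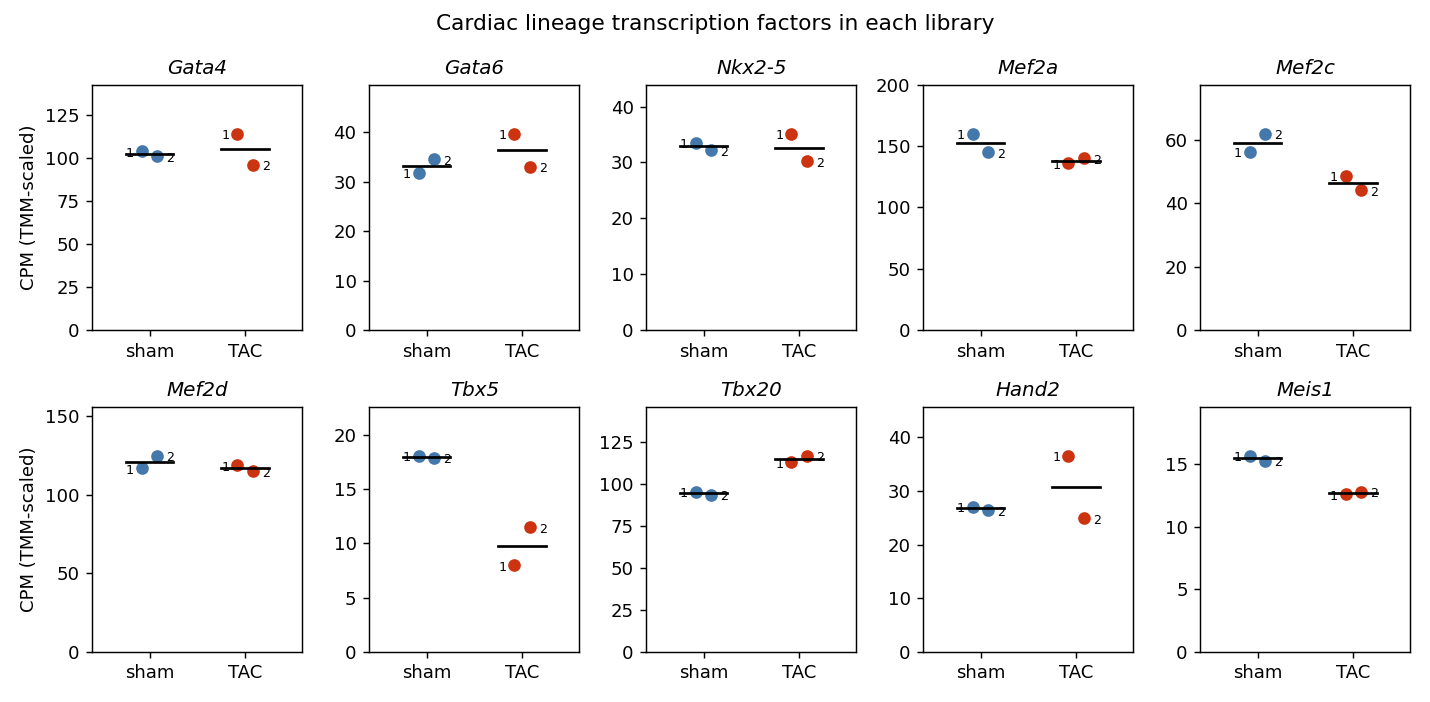
Level of each factor in each library, in CPM scaled by TMM, with sham libraries in blue, TAC libraries in red, the replicate number beside each point and a bar at the mean of the 2 libraries. Tbx5 sits at 18.1 and 17.9 CPM in sham and at 7.96 and 11.5 CPM in TAC, while Gata4, Gata6, Nkx2-5, Mef2d and Hand2 overlap between the groups.

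Between the 2 sham hearts, 6 of the 10 factors differed by less than 0.1 on the log2 scale, and between the 2 TAC hearts 4 did. The TAC hearts were most unlike each other for Hand2, with a log2 difference of 0.56 between TAC 1 and TAC 2, and for Tbx5, with −0.53. In both cases the sham hearts lay within 0.03 of each other.

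Tbx5 encodes the T-box factor needed for the atria, the septa and the conduction system, and its loss of function causes Holt-Oram syndrome. The gene (ENSMUSG00000018263) lies at chr5:119832668-119885219 on the + strand of mm10. Its counts were 574 and 515 in sham and 222 and 282 in TAC, or 18.1 and 17.9 CPM against 7.96 and 11.5 CPM. Both TAC libraries lay below both sham libraries, and TAC 1 was the lower. The log2 fold change was −0.89 ± 0.17 (SE, n = 2 against 2), with a 95% interval from −1.29 to −0.49 and an adjusted p of 0.0348 (edgeR), so that Tbx5 fell by 46.1%. Without TAC 1 the log2 fold change was −0.64 with an adjusted p of 0.0613, in a fit that called 2.34% of genes, and the call was lost. It was also lost in limma fits on log2(FPKM + 1), with −0.87 and an adjusted p of 0.0713, and on log2(FPKM + 0.1), with −1.07 and 0.0792, which called 1.71% and 1.56% of genes.

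Tbx20, the T-box factor that keeps up the contractile and ion transport genes of the adult ventricle, went the other way. The gene (ENSMUSG00000031965) lies at chr9:24718138-24774303 on the − strand. It stood at 95.6 and 93.8 CPM in sham and at 113 and 117 CPM in TAC. The groups did not overlap and replicates differed by at most 0.04 on the log2 scale, but the log2 fold change of 0.28 ± 0.07 (95% interval 0.12 to 0.44) had an adjusted p of 0.0636 in edgeR and was not called. It passed the threshold without the low-count filter, at an adjusted p of 0.0416, where 10.5% of genes were called. The difference shrank to 0.09 under total-count scaling (adjusted p = 0.716) and to 0.08 in limma on log2(FPKM + 1) (0.765), and the deposited FPKM overlapped, with 11.56 and 10.8 in sham and 10.88 and 12.94 in TAC.

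The ratio of the 2 T-box genes is free of any scaling between libraries. There were 0.19 and 0.191 counts of Tbx5 per count of Tbx20 in sham, and 0.0704 and 0.0989 in TAC. The ratio in TAC differed from that in sham by −56.2%, a log2 difference of −1.19, with no overlap. Tbx5 counts per Gata4 count went from 0.175 and 0.176 in sham to 0.0699 and 0.12 in TAC, and per Nkx2-5 count from 0.542 and 0.556 to 0.227 and 0.382. The smallest p that an exact permutation test on 2 against 2 samples can give is 0.333, and these ratios are given as a description.

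The fall of Tbx5 went along with lower markers of endothelial cells, fibroblasts, mural cells and macrophages. All 10 endothelial markers had negative log2 fold changes (median −0.62, 2 called, namely Cdh5 and Egfl7), as did all 10 fibroblast markers (median −0.83, 3 called, namely Dcn, Lum and Gsn), all 10 mural markers (median −0.78, 2 called, namely Pdgfrb and Abcc9) and all 10 macrophage markers (median −0.92, none called by edgeR, 6 at an unadjusted p under 0.05, 1 called by DESeq2). The cardiomyocyte markers had a median of 0.06 and no call in edgeR (5 of 10 at an unadjusted p under 0.05, and 5 called by DESeq2). Summed, the endothelial markers stood at 634 and 498 CPM in sham and at 303 and 423 CPM in TAC, and the fibroblast markers at 513 and 354 CPM against 198 and 275 CPM. The mural markers summed to 758 and 796 CPM in sham and to 440 and 579 CPM in TAC. Abcc9 alone gave 380 and 406 CPM of this in sham and 279 and 303 CPM in TAC, so the mural sums rested largely on Abcc9. The macrophage markers summed to 137 and 70.5 CPM in sham and to 37.6 and 70.2 CPM in TAC. The medians stayed negative with any 1 library left out, but their size moved: endothelial markers had −0.39 without TAC 1 (1 call), −0.41 without sham 1 (1 call) and −0.96 without TAC 2 (10 calls), and macrophage markers −0.37 without sham 1, −0.58 without TAC 1 and −1.34 without TAC 2. These fits called 2.34% of all genes without TAC 1, 4.55% without sham 1 and 10.3% without TAC 2, against 5.01% with all libraries. Mural markers had −0.48 without TAC 1, and fibroblast markers ran from −1.06 to −0.56. TAC 1 was the lowest library for Tbx5 and for each of these 4 sums. Other lists had smaller medians with all libraries and no call in edgeR. Endocardial markers had −0.05 (2 of 4 tested genes positive), epicardial markers −0.15 and red blood cell markers 0.07. Each of these medians changed sign when some single library was left out. The cardiomyocyte median was −0.12 under total-count scaling and ran from −0.02 without sham 1 to 0.16 without sham 2.

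Set against the summed endothelial markers, the Tbx5 count was 2.86% and 3.6% in sham and 2.63% and 2.72% in TAC. Against the mural markers, a sum that rested largely on Abcc9, it was 2.39% and 2.25% in sham and 1.81% and 1.99% in TAC. In each case both TAC libraries lay below both sham libraries. Against the fibroblast markers the Tbx5 count was 3.54% and 5.06% in sham and 4.02% and 4.19% in TAC, values that overlap. The log2 differences of these shares were −0.26 for endothelial, −0.04 for fibroblast, −0.29 for mural and 0.03 for macrophage markers, beside −0.89 for Tbx5 itself. For the other 9 factors the same differences were all positive, from 0.27 for Mef2c against mural markers to 1.22 for Tbx20 against macrophage markers. Since the sums were lower in TAC, dividing by them raises the log2 difference of any gene. Neither outcome is therefore a test, and the shares are given as a description. The part of these other cells in the fall of Tbx5 was not tested. Conduction markers, another setting of Tbx5, had a median log2 fold change of −0.35 over 4 tested genes. None was called in edgeR, DESeq2 or limma voom (1 at an unadjusted p under 0.05 in edgeR). With 1 library left out this median ran from −0.41 without sham 2 to −0.15 without sham 1. Irx3 and Gja5, also tied to the conduction system and called as lower, belong to other lists and are described below. Atrial markers had a median of −0.25 over 5 tested genes with 1 call (Nppa, described below). The atrial light chain Myl7 was at 25.8 and 1.32 CPM in sham and at 8.93 and 12.9 CPM in TAC, and the part of atrial tissue was not tested. The direction of the atrial median depended on the sham libraries and on the method: it was 2.03 without sham 1, −1.17 without sham 2, 0.51 in limma voom and 0.30 on log2(FPKM + 1).

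**Figure D2:**
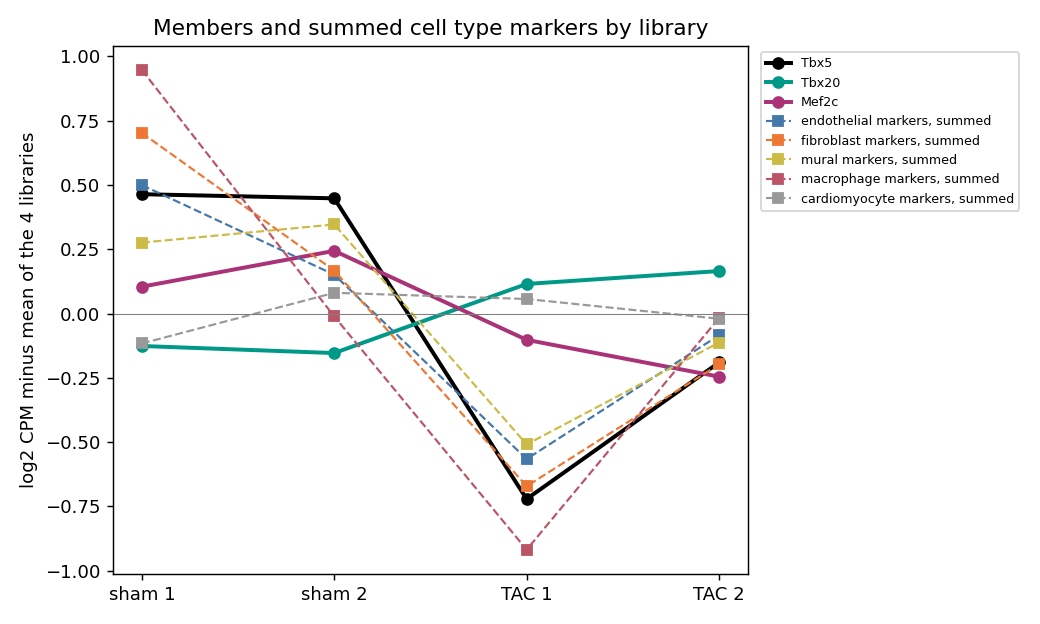
Log2 CPM of Tbx5, Tbx20 and Mef2c (solid lines) and of summed cell type markers (dashed lines) in the 4 libraries, each minus its own mean over the 4 libraries; lines only join points of one gene or list. Tbx5 and the sums for endothelial cells, fibroblasts, mural cells and macrophages are lowest in TAC 1, while the summed cardiomyocyte markers stay near 0 and Tbx20 is above 0 in both TAC libraries.

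The MEF2 genes encode the MADS box factors that class IIa histone deacetylases hold inactive until calcium signals release them. Mef2c, the family member that the embryonic heart depends on most, lies at chr13:83504034-83667080 on the + strand (ENSMUSG00000005583). It stood at 56.2 and 61.9 CPM in sham and at 48.7 and 44.1 CPM in TAC. The groups did not overlap. The log2 fold change was −0.35 ± 0.09 (95% interval −0.56 to −0.14), and the adjusted p of 0.0686 in edgeR missed the threshold. Mef2c did pass it under scaling by total counts (log2 fold change −0.54, adjusted p = 0.0379, 4.22% of genes called), under totals without mitochondrial genes (−0.45, 0.0308, 5.1% called) and without the low-count filter (−0.34, 0.0276). Mef2c is also expressed in endothelial cells, whose markers were lower in TAC as given above, and their part was not tested.

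Mef2a, a main MEF2 gene of the adult heart, lies at chr7:67231163-67372858 on the − strand (ENSMUSG00000030557). It was at 160 and 145 CPM in sham and at 136 and 140 CPM in TAC, without overlap. Its log2 fold change of −0.14 ± 0.08 (95% interval −0.32 to 0.04) had an adjusted p of 0.271 in edgeR. The value ran from −0.20 to −0.07 with 1 library left out and was −0.33 under total-count scaling. Mef2d, which carries stress signals to the fetal gene program, lies at chr3:88142372-88172086 on the + strand (ENSMUSG00000001419). It was at 117 and 125 CPM in sham and at 119 and 115 CPM in TAC. The Mef2d values overlapped, and its log2 fold change was −0.05 ± 0.07 (95% interval −0.22 to 0.12, adjusted p = 0.7). The antisense gene 1700113A16Rik overlaps 8.87% of its exonic bases, and without knowledge of strand their reads cannot be told apart there.

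Within the family, the share of Mef2c in the summed MEF2 FPKM (fragments per kilobase of transcript, relative to library size) was 16.8% and 19.1% in sham and 15.8% and 14.8% in TAC. Mef2a held 38.7% to 44.2% and Mef2d 39% to 45% in the 4 libraries, and Mef2b at most 0.11%. Counts of Mef2c per count of Mef2d were 0.481 and 0.493 in sham and 0.409 and 0.383 in TAC, which did not overlap, whereas counts of Mef2c per count of Mef2a (0.352 and 0.426 against 0.357 and 0.316) did. The log2 differences of the ratios were −0.30 against Mef2d and −0.21 against Mef2a, and no test set one against the other.

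The start of Mef2a itself carries a MEF2 motif, shown because only 3.19% of 32851 mouse promoters in the RefSeq table hold one in a window of this length. The window runs from 250 bases before to 50 after the start site, printed 5′ to 3′ along the gene, with motif letters in capitals (chr7:67372809-67373108, - strand, GRCm38.p6):
Mef2a: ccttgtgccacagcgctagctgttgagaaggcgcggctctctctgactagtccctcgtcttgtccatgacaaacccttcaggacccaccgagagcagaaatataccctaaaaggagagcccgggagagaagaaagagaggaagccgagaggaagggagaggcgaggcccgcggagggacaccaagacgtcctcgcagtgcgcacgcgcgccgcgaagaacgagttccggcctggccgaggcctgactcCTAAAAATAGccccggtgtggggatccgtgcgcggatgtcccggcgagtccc

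RefSeq promoters matched 7 of the 10 factors (all but Gata4, Gata6 and Tbx5), with 3 windows for Mef2c. On both strands they were searched for the GATA motif (AGATAA, with T also allowed as its first base and G as its last, in 29.8% of all promoters), the NKX2-5 motif (TNAAGTG, 11.5%), the MEF2 motif, a T-box motif (AGGTGT, 13.7%), an E-box of HAND factors (CATCTG, 17.2%) and a MEIS motif (TGACAG, 19.2%). Matches of different motifs were allowed to overlap. Nkx2-5 held 1 MEIS motif, Meis1 held 1 NKX2-5 motif, and of the 3 windows of Mef2c 1 held a T-box motif and 1 an E-box. Mef2d and Tbx20 held none of these letters in their windows. A match is a string of letters, and binding was not measured here.

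Gata4 encodes the zinc finger factor that activates natriuretic peptide and contractile genes and is needed for hypertrophy under load. The gene (ENSMUSG00000021944) lies at chr14:63198922-63271692 on the − strand. It was at 104 and 101 CPM in sham and at 114 and 96 CPM in TAC. The 2 TAC libraries lay on either side of the sham libraries, and the log2 fold change was 0.03 ± 0.09 (95% interval −0.19 to 0.25, adjusted p = 0.856), or −0.17 under total-count scaling. Its relative Gata6, which shares many of its targets, maps to chromosome 18 (ENSMUSG00000005836, 11052064 to 11085635, + strand). Gata6 was at 31.8 and 34.6 CPM in sham and at 39.7 and 33 CPM in TAC, which overlapped, with a log2 fold change of 0.13 ± 0.11 (95% interval −0.12 to 0.39, adjusted p = 0.459), or −0.06 under total-count scaling. The balance within the family held close across libraries: Gata4 made up 79.1% and 77.3% of the summed FPKM of Gata4, Gata5 and Gata6 in sham and 76.6% and 76.8% in TAC.

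Nkx2-5, the homeodomain factor that marks the cardiac lineage from its start, lies at chr17:26838664-26845009 on the − strand (ENSMUSG00000015579). It was at 33.5 and 32.2 CPM in sham and at 35.1 and 30.2 CPM in TAC. The values overlapped, with a log2 fold change of −0.01 ± 0.10 (95% interval −0.24 to 0.22, adjusted p = 0.968). Nkx2-5 had the smallest difference of the 10 under TMM, and under total-count scaling it stood at −0.20.

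Hand2, a helix-loop-helix factor of the right ventricle and of load-induced growth, lies at chr8:57320983-57324633 on the + strand (ENSMUSG00000038193). It was at 27.1 and 26.4 CPM in sham and at 36.6 and 24.9 CPM in TAC. TAC 1 was the highest and TAC 2 the lowest of the 4 libraries, and the log2 fold change of 0.20 ± 0.17 had a 95% interval from −0.19 to 0.59 (adjusted p = 0.456), or −0.01 under total-count scaling. A single TAC library decided the value: without TAC 2 it was 0.46 with an adjusted p of 0.0295 (10.3% of genes called), and without TAC 1 it was −0.10. The antisense transcript Hand2os1 overlaps 19.6% of the exonic bases of Hand2, and since the sources used here do not say whether strand was used in counting, reads of the 2 genes cannot be told apart there.

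The promoter of Hand2 is shown because it holds motifs of its own class and of the GATA class, with 2 GATA motifs and 1 E-box in capitals (chr8:57320733-57321032, + strand, GRCm38.p6), while neither Gata4 nor Hand2 was called:
Hand2: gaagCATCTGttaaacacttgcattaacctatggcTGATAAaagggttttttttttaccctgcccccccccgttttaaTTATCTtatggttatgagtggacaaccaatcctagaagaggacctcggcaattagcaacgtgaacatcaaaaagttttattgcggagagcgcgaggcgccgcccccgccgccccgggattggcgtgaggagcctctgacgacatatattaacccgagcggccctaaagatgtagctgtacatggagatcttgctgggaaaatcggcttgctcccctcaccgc

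Meis1, the TALE homeodomain factor that holds adult cardiomyocytes out of the cell cycle, lies at chr11:18879817-19018985 on the − strand (ENSMUSG00000020160). It was at 15.7 and 15.3 CPM in sham and at 12.6 and 12.8 CPM in TAC. The groups did not overlap and replicates lay within 0.04 on the log2 scale. From 312 to 496 counts per library, the log2 fold change of −0.29 ± 0.11 (95% interval −0.54 to −0.04) had an adjusted p of 0.141 and was not called. Its relative Meis2 showed −0.24 ± 0.10 (adjusted p = 0.171), so that counts of Meis1 per count of Meis2 were 0.78 and 0.74 in sham and 0.711 and 0.761 in TAC, which overlapped. Meis1 shares 9.16% of its 50-base words with other annotated genes, mostly Gm37818, which overlaps it on the same strand, and the antisense gene Gm16140 overlaps 8.51% of its exonic bases, so its value is uncertain to that extent.

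**Figure D3:**
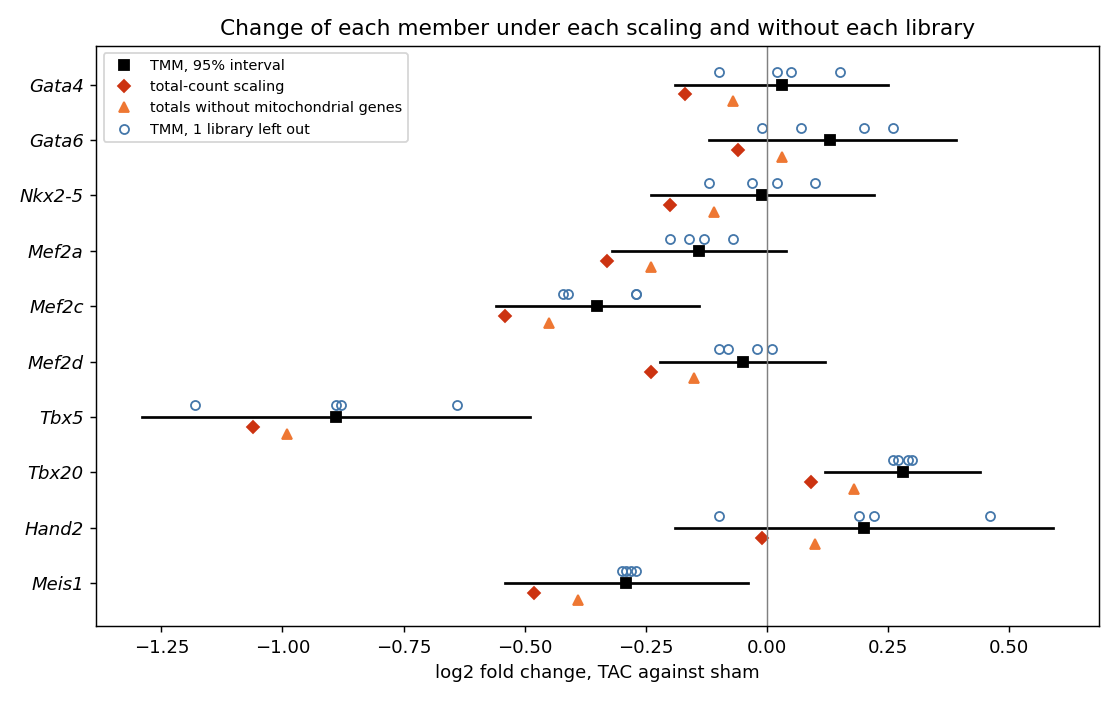
Log2 fold change of each factor in TAC against sham, with the 95% interval of the edgeR fit under TMM (squares and bars), the values under total-count scaling (diamonds) and under totals without mitochondrial genes (triangles), and the values with 1 library left out (circles). Tbx5 is below −0.6 in every fit shown, and Gata4, Gata6 and Hand2 are above 0 under TMM with all libraries and below 0 under total-count scaling.

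The direction of 3 of the 10 factors rested on the scaling. Scaling by total counts moved the median of all genes from −0.01 to −0.20 on the log2 scale, the median of the 10 factors from −0.03 to −0.22, and put 9 of the 10 below 0, the exception being Tbx20 at 0.09. Relative to the median of all genes, the factors thus lay at nearly the same place under both scalings. Under total-count scaling 2 of the 10 were called (Tbx5 and Mef2c), where 4.22% of all genes were.

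Levels between the factors were compared per length, in FPKM as deposited, over the 4 libraries. Gata4 led with a mean of 38.1 ± 2.93 (SD, n = 4), followed by Mef2d at 28.7 ± 2.68, Mef2a at 28.2 ± 4.72 and Nkx2-5 at 21.7 ± 1.95. A middle group held Hand2 at 12.1 ± 1.22, Tbx20 at 11.5 ± 0.991, Mef2c at 11.4 ± 2.6 and Gata6 at 11.1 ± 0.296. Tbx5 at 4.5 ± 1.92 and Meis1 at 4.46 ± 0.865 came last. Neighbours in this order had ranges that did not overlap at 3 steps, between Gata4 and Mef2d, between Nkx2-5 and Hand2 and between Gata6 and Tbx5, and the ranges of the other neighbours overlapped. Mef2a was nevertheless above Nkx2-5 in each of the 4 libraries. Gata4 lay above 92% of all genes tested and Meis1 above 53.5%. Tbx5 FPKM were 6.22 and 5.89 in sham against 2.13 and 3.75 in TAC, so that Tbx5 lay above Meis1 in both sham libraries and below it in both TAC libraries. The place of Mef2c also differed between the groups, with 12.89 and 14.39 FPKM in sham, above Hand2 in both libraries, and 9.11 and 9.41 FPKM in TAC, below Hand2, Tbx20 and Gata6 in both.

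Relatives of the 10 factors in the same families often had few counts in these cells. Of 16 listed, 7 passed the low-count filter, and Hand1 and Nkx2-6 had a count of 0 in every library. One was called: Tbx15, a T-box gene known from skeletal and muscle development, rose from 1.04 and 0.834 CPM in sham to 3.16 and 2.29 CPM in TAC. The log2 fold change was 1.53 ± 0.32 (adjusted p = 0.0422, edgeR), from 24 to 88 counts per library, and the call was lost without TAC 1 (1.28, adjusted p = 0.182) and without sham 2 (1.39, 0.0723). It was lost under total-count scaling (1.33, 0.0612) and totals without mitochondrial genes (1.43, 0.0535) as well. Tbx3, a T-box repressor active in the conduction system, had −0.51 ± 0.16 (adjusted p = 0.094, edgeR). Tbx2, another T-box repressor, had −1.01 ± 0.33 (adjusted p = 0.11, edgeR). Its value ran from −1.52 to −0.61 with 1 library left out, and it was called in 3 of 13 alternatives. Gata2, a GATA factor of endothelial and blood cells, had −0.43 ± 0.22 (0.255), with −0.18 without TAC 1 and −0.70 without TAC 2. The median of the 7 was −0.24, beside −0.01 for all genes, and their 1 call stands beside 5.01% of all genes called.

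Partners and regulators of the factors were represented by 26 genes, all tested. One rose and 1 fell, with a median log2 fold change of −0.22 over the list and 20 negative values. Of all 12499 genes 6359 had negative values, with a median of −0.01. Endothelial, fibroblast, mural and macrophage markers were lower in the same libraries (medians −0.62 to −0.92), and their part in this list was not tested. Srf, the serum response factor that binds DNA with GATA4 and NKX2-5, rose from 52.8 and 54.3 CPM in sham to 76.5 and 70 CPM in TAC, a log2 fold change of 0.45 ± 0.08 (adjusted p = 0.0278, edgeR). Irx3, an Iroquois factor of the ventricular conduction system, fell from 26.5 and 25.4 CPM to 16.7 and 17.6 CPM, by 0.60 on the log2 scale (SE 0.10, adjusted p = 0.0212). Both calls were lost without TAC 1, where Srf had 0.39 (0.085) and Irx3 −0.56 (0.059), and that of Srf under total-count scaling (0.26, 0.213). The 2 calls stand beside 5.01% of all genes called. The groups did not overlap for 20 of the 26, or 76.9%, with 4 higher and 16 lower in TAC, beside 60.1% of all genes, with 29.8% higher and 30.3% lower.

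Among the regulators, the class IIa histone deacetylases that bind MEF2 had negative values, with Hdac7 at −0.65 ± 0.15 (adjusted p = 0.0529), Hdac4 at −0.47 ± 0.13 (0.085), Hdac9 at −0.36 ± 0.10 (0.0859) and Hdac5 at −0.13 ± 0.08 (0.312), none of them called in edgeR with all libraries. Hdac7 was called in 7 of 13 alternatives, Hdac4 in 3 and Hdac9 in 2. The endothelial, fibroblast, mural and macrophage markers were lower in the same libraries (medians −0.62 to −0.92), and their part in these values was not tested. Camk2d, the calcium-dependent kinase that releases these deacetylases, had 0.24 ± 0.07 (0.0921). Zfpm2, the cofactor FOG2 of GATA4, had −0.57 ± 0.16 (0.0786) and was called in 5 of 13 alternatives. Prox1, a homeobox factor of lymphatic endothelium and of heart muscle, had −0.45 ± 0.13 (0.0865), was called in 5 of 13 alternatives and stood at −0.27 without TAC 1 (0.267). Hopx, a homeodomain protein that binds SRF and not DNA, had 0.12 ± 0.09 (0.428), or −0.07 under total-count scaling.

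Genes known as targets of these factors made up a list of 27. Of these, 26 were tested, 8 rose and 1 fell, beside 2.58% of all genes called as higher and 2.43% as lower. The median log2 fold change was 0.27, beside −0.01 for all genes. Under total-count scaling 6 rose and 2 fell, beside 0.84% and 3.38% of all genes. The medians were then 0.07 and −0.20. Myh7, the slow beta myosin heavy chain, rose from 73.2 and 52.7 CPM to 1480 and 698 CPM (log2 fold change 4.11 ± 0.35, adjusted p = 0.00445, edgeR), with 3.47 without TAC 1. Acta1, skeletal alpha actin, rose from 322 and 542 CPM to 3150 and 2270 CPM (2.65 ± 0.26, 0.00489). Both belong to the fetal gene program, as do the natriuretic peptides Nppb and Nppa described next. These 4 had been named by the study on these libraries and are no independent evidence of a direction. The whole list was drawn up with earlier results of these data known, so its calls and median are no independent evidence either.

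Nppb, which encodes brain natriuretic peptide, rose from 163 and 171 CPM to 760 and 471 CPM (1.88 ± 0.20, adjusted p = 0.00535, edgeR), and Nppa, which encodes atrial natriuretic peptide, from 208 and 106 CPM to 485 and 378 CPM (1.46 ± 0.28, 0.0334). The call of Nppa was lost without TAC 1 (1.27, 0.0614) and under totals without mitochondrial genes (1.35, 0.0531). The value of Nppa was 2.03 without sham 1, the library with the high Myl7 level given above, and 1.06 without sham 2, and the part of atrial tissue was not tested. Their promoters are shown because both are textbook targets of GATA4 and rose, whereas Gata4 and Nkx2-5 were not called and Tbx5 fell. The Nppb window holds 2 GATA motifs (chr4:147985650-147985949, + strand, GRCm38.p6), and the Nppa window holds 1 T-box motif, 1 NKX2-5 motif, 1 GATA motif and 1 MEIS motif in this order (chr4:148000472-148000771, + strand, GRCm38.p6):
Nppb: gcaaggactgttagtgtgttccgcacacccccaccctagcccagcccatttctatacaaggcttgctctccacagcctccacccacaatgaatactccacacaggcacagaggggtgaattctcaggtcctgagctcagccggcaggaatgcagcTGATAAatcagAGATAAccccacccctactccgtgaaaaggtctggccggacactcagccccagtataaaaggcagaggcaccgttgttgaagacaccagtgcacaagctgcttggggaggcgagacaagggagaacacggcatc
Nppa: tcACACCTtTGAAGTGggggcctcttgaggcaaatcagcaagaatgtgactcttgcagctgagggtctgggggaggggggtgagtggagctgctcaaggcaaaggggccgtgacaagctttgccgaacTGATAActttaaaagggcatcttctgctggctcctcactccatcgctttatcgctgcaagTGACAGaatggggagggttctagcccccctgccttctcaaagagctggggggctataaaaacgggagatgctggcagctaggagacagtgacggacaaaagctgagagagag

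The other called targets rose less. Ankrd1, a cardiac ankyrin repeat protein, had a log2 fold change of 1.00 ± 0.14 (adjusted p = 0.0149, edgeR), Xirp1, an actin-binding protein of the intercalated disc and a MEF2 target, 0.79 ± 0.09 (0.00669), Cdkn1a, the cell cycle inhibitor p21 and a target of MEIS1, 0.88 ± 0.19 (0.0443), and Tnnc1, troponin C of the thin filament, 0.52 ± 0.09 (0.0278). Cdkn1a and Tnnc1 were not called under total-count scaling (0.67, 0.073 and 0.33, 0.126), nor Cdkn1a under totals without mitochondrial genes (0.77, 0.071). Without TAC 1, Cdkn1a (0.68, 0.124) and Tnnc1 (0.46, 0.0647) were no longer called, and Tnnc1 was not called without sham 1 either (0.44, 0.0672). The 3 uncalled targets with the highest CPM were Myh6 at −0.18 ± 0.14 (0.419), Atp2a2 at −0.17 ± 0.11 (0.345) and Mb at 0.26 ± 0.12 (0.214). With 1 library left out, Myh6 ran from −0.30 to −0.05, Atp2a2 from −0.20 to −0.15 and Mb from 0.14 to 0.36. Some uncalled targets crossed the threshold elsewhere, foremost Ryr2, the calcium release channel, which had −0.38 ± 0.09 (0.064) and was called in 9 of 13 alternatives, while Myl2, Bcl2 and Ppargc1a, with 0.41, 0.69 and 0.40, were each called in 5.

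Gja5 was the target that fell. It encodes connexin 40, the gap junction protein of atria and of the fast conduction system, and is known to be activated by TBX5 and NKX2-5. It was at 4.9 and 3.86 CPM in sham and at 1.61 and 1.88 CPM in TAC, with no overlap and a log2 fold change of −1.33 ± 0.24 (adjusted p = 0.0296, edgeR). The call was lost without TAC 1 (−1.22, 0.0866) and without sham 1 (−1.14, 0.0762). Gja5 is also a gene of arterial endothelium, and the part of the lower endothelial markers was not tested. Its promoter window held none of the 6 motifs.

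In these 3 lists, Myh7, Acta1, Nppb, Ankrd1 and Xirp1 were called in all 13 alternatives. The calls of Tbx15, Srf, Irx3, Nppa, Cdkn1a, Tnnc1 and Gja5 were lost in the limma fit on log2(FPKM + 1), with adjusted p from 0.0509 for Irx3 to 0.189 for Tnnc1. The size of the change did not move alike. Irx3 had −0.70 there against −0.60 in edgeR, Srf 0.39 against 0.45 and Tbx15 0.37 against 1.53.

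**Figure D4:**
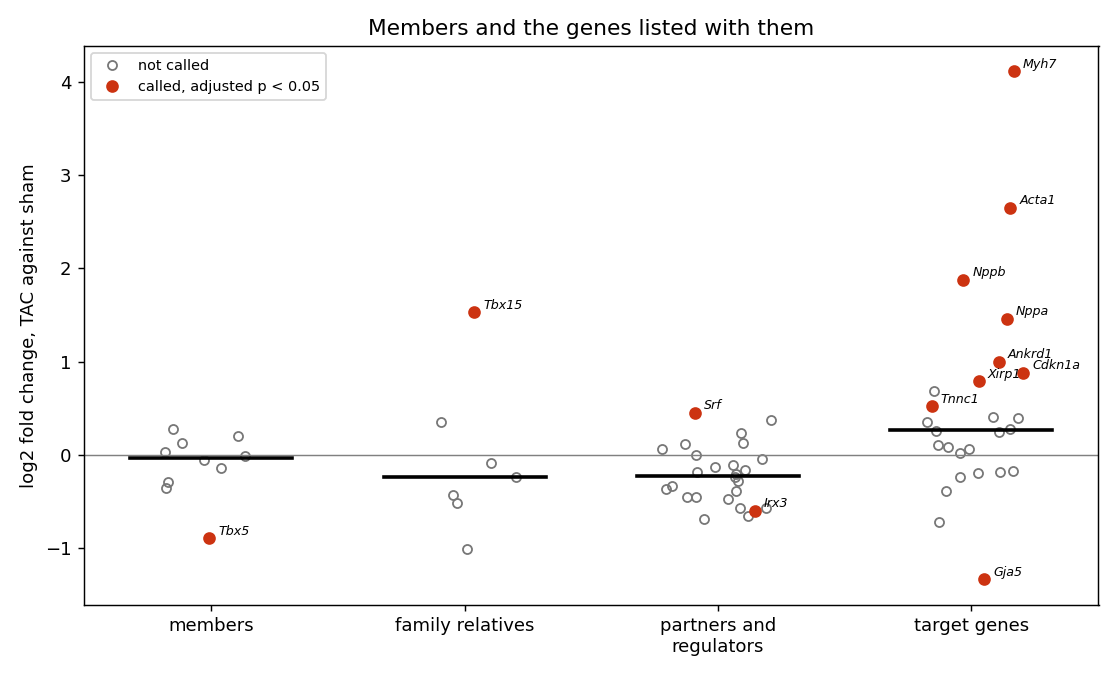
Log2 fold change in TAC against sham of the 10 factors, their 7 tested relatives, 26 partners and regulators and 26 targets, 1 point per gene, with called genes filled and named and a bar at each list's median. The medians are −0.03, −0.24, −0.22 and 0.27, and called targets reach 4.11 (Myh7) while Tbx5 is the only called factor.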

How the data were processed

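RNA-seq libraries from cardiomyocytes of 2 sham and 2 TAC hearts were analysed, grouped by the sample titles. The authors deposited, per gene and library, an expected count and an FPKM value. The submitters' processing notes name Bowtie2 2.2.8, StringTie 1.3.1 and mm10, while neither labels nor methods name the counting program or say whether strand was used. The deposited expected counts were rounded to whole numbers (those of the 10 factors were whole as deposited) and tested in R 4.3.3 with edgeR 4.0.16: filterByExpr, TMM, glmQLFit without a block and glmQLFTest over 12499 genes, with Benjamini-Hochberg adjustment and calls at an adjusted p under 0.05. The standard error is the log2 fold change divided by the root of F, and the common coefficient of biological variation was 10.5%. Alternatives used limma 3.58.1, DESeq2 1.42.0, other scalings, no filter, a replicate block and leaving out each library. The deposited FPKM served to compare levels between genes. The length implied by count and FPKM differed between libraries by a factor of at most 1.08 for the 10 factors.

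The sham libraries differed by a chi-square of 9.19 per degree of freedom and the TAC libraries by 31.3, so all were kept as separate samples. The 10 factors and all gene lists were chosen with earlier results of these data known. Named were all factors, every called gene of the lists up to 10 per list, the 3 uncalled genes of each list with the highest CPM, and some, not all, of the genes whose adjusted p crossed the threshold in an alternative. Hdac5, Myl7 and the called marker genes were named outside this rule after their values were seen. Positions came from GENCODE M21 and promoters from RefSeq (GRCm38.p6). The tests were tested on simulated data with known changes.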

Additional observations from a re-analysis of the deposited data

How the results depend on the processing

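With 2 hearts per group, calls near the threshold moved with most choices. Against 1 of the 10 factors, 1 relative, 2 partners, 9 targets and 626 of all genes, an adjusted p under 0.01 called 0, 0, 0, 4 and 92, and one under 0.1 called 3, 2, 10, 14 and 1817. Without the low-count filter the calls were 3, 2, 7, 14 and 1676. In limma fits on log2(FPKM + 1) and log2(FPKM + 0.1) none of the factors, relatives or partners was called (0 each) and 214 and 195 of all genes were, while at an unadjusted p under 0.05 each fit held 4 factors, 5 relatives and 14 partners. Total-count scaling called 2 factors, 0 relatives and 4 partners, totals without mitochondrial genes 2 factors and 0 relatives, and DESeq2 5 partners and 14 targets, in fits that called 528, 638 and 925 of all genes. Leaving out 1 library at a time gave 0 to 2 factors, 0 to 2 relatives, 0 to 4 partners, 5 to 13 targets and 301 (without TAC 1) to 1336 (without TAC 2) of all genes. Tbx5 was negative in all 13 alternatives, from −1.18 to −0.64, and called in 10, with adjusted p from 0.000664 to 0.0792. Values of uncalled genes changed sign under total-count scaling, log2(FPKM + 1) and log2(FPKM + 0.1) for Gata4 (−0.17, −0.17, −0.18), Gata6 (−0.06, −0.04, −0.05), Hand2 (−0.01, −0.01, −0.02) and Hopx (−0.07, −0.06, −0.06), and under totals without mitochondrial genes for Gata4 (−0.07). With 1 library left out, values ran from −0.10 to 0.15 for Gata4, −0.01 to 0.26 for Gata6 and −0.10 to 0.46 for Hand2 (each lowest without TAC 1 and highest without TAC 2), from −0.12 to 0.10 for Nkx2-5 (0.02 without sham 1) and from −0.10 to 0.01 for Mef2d. The cause of these shifts was not tested. Of the other values of single genes under an alternative, 337 kept direction and side of the threshold, 34 lost the call and 13 gained it.

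The study's methods speak of pairs of sham and TAC mice without tying the replicate numbers to them, and deviations of same-numbered libraries correlated at −0.26 over 12499 genes. A fit with the replicate number as a block called 1 factor (Tbx5, −0.91, adjusted p = 0.0136), 1 relative, 2 partners, 10 targets and 566 of all genes. A crossed pairing, chosen after seeing the data, called 3 factors, 2 relatives, 9 partners, 16 targets and 2131 of all genes.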
